A study of Mus musculus with 6 samples.

Results

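H3K27me3 peaks were examined at 8 genes of the mouse Egr and Klf families, Egr1, Egr2, Egr3, Egr4, Klf2, Klf4, Klf5 and Klf14, out of 21911 protein-coding genes. They were chosen by name, as 4 Egr and 4 Klf genes known as rapidly induced factors or followed by the study. Earlier results of these data were known, and the study followed Egr4 and Klf4 for their H3K27me3 in these libraries, so their presence here is no independent evidence. Each gene was given a window from 5 kb upstream of its 5′-most transcription start site (TSS) to its end. Every deposited peak that overlapped the window by at least 1 bp was counted. Of the 8 genes, Egr2 and Egr4 carried peaks in all 6 libraries and Egr3 in 5. Klf4 and Klf5 carried 1 peak each in PBS replicates 1 and 2 only, on 6 and 7 reads at Klf4 and on 17 and 15 reads at Klf5. Egr1, Klf2 and Klf14 had none in any library. The bases under these peaks were fewer in each CTX library than in every PBS library at Egr3 and Egr4, whereas the groups overlapped at Egr2. Of all genes called in the 3 PBS libraries, 36.2% showed the same pattern as Egr3 and Egr4.

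EGR proteins are zinc finger transcription factors that bind GC-rich DNA. Their genes are immediate early genes, which growth factors, hormones and stress switch on within minutes without new protein synthesis, through serum response factor and cAMP-responsive elements near their promoters. KLF proteins carry zinc fingers of a related kind and bind GC boxes and CACCC elements, and several of their genes are induced in the same way. H3K27me3, the trimethyl mark on lysine 27 of histone H3, is laid down by EZH2 in Polycomb repressive complex 2. It typically lies over the CpG-rich promoters of developmental regulators and accompanies their silencing. In granulosa cells (GCs), the somatic cells that surround and nourish the oocyte, EGR and KLF genes are known to respond to the gonadotropins that drive follicle growth and ovulation.

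The series asked whether genes that rise after cyclophosphamide (CTX), an alkylating chemotherapy drug, lose H3K27me3. GCs came from 3-week-old female ICR mice primed with pregnant mare's serum gonadotropin (PMSG), which all animals of both groups received. They were then injected once with CTX or with phosphate buffered saline (PBS) and sampled after 6 h, and the cells of several mice were pooled per sample. Anti-H3K27me3 CUT&Tag, in which an antibody guides a transposase to cut and tag the chromatin around the mark, gave 3 libraries per group, so that p-values measure the spread between pools.

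The values are peak lists made for each library alone, not read counts. A stretch with no listed peak lay under the caller's threshold, and this does not show that the mark was absent. The pileup, the number of extended reads over a summit, was recovered from the listed fold enrichment and p-value. The depth of each library was recovered in the same way. In reads per Mb of genome, PBS replicates 1 to 3 had 1957.5, 1375.5 and 1594.5, and CTX replicates 1 to 3 had 1433, 1629.5 and 1118 (exact permutation p = 0.5). Called sequence amounted to 2.36 ± 0.562 Mb per PBS library and 1.44 ± 0.507 Mb per CTX library (SD, n = 3 each; exact permutation p = 0.2). The groups overlapped in both measures, and the labels name no batch. Because the lists differ in size, each gene is set beside all genes below. Between 3 and 3 libraries no exact permutation test can give a p-value below 0.1.

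The sequences that carried the calls are shown first. They are stretches shared by several libraries at each gene, read from the GRCm38 genome 5′ to 3′ on the gene's own strand, with CpG dinucleotides in capitals because Polycomb domains gather on CpG-rich DNA. The Egr4 stretch was called in all 6 libraries and lies in the single intron (chr6:85513015-85513259, minus strand, 245 bp, bases +330 to +574 from the TSS). The Egr2 stretch was also called in all 6 and lies in the last coding exon (chr10:67539952-67540093, plus strand, 142 bp, +4477 to +4618). No base of Egr3 was called in all 6 libraries. Its most shared stretch, called in every library but CTX replicate 1, was 162 bp of untranslated exon at +3071 to +3232, and its sequence is not shown. The Egr3 stretch shown was shared by the 3 PBS libraries and CTX replicate 3 (chr14:70078724-70078878, plus strand, 155 bp). It is labelled by the coding transcripts, in which it lies in the intron before the last exon. However, 140 bp of it are exon of a non-coding transcript of the gene, which starts within the stretch at +1536. The remaining 15 bp are intron. The Klf4 stretch, shared by PBS replicates 1 and 2, covers the end of an intron and 19 bp of coding exon (chr4:55530965-55531164, minus strand, 200 bp). For Klf5 the central 200 bp of the stretch shared by these libraries is given, all coding exon (chr14:99301558-99301757, plus strand).
Egr4 intron: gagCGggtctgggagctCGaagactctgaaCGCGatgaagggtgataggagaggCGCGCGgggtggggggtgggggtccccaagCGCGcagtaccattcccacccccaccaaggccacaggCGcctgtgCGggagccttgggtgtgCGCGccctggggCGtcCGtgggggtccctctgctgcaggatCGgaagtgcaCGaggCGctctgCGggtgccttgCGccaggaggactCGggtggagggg
Egr2 coding exon: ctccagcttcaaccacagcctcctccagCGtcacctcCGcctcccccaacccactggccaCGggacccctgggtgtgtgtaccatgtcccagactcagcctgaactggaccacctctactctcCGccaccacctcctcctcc
Egr3 intron: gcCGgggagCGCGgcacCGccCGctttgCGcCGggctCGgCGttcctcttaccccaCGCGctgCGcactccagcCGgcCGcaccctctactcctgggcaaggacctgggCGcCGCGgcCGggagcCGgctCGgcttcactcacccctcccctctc
Klf4 intron and exon: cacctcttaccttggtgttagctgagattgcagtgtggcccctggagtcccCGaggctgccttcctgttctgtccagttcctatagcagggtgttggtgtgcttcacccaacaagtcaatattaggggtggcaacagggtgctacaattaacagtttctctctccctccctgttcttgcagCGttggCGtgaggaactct
Klf5 coding exon: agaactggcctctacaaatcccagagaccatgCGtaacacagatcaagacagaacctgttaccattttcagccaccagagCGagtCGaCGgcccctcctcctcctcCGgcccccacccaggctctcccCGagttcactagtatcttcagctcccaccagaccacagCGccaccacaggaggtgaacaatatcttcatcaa
The Egr4 stretch held 21 CpGs with 70.6% GC and the Egr3 stretch 20 CpGs with 76.1% GC, at 0.724 and 0.929 times the CpG number expected from their base composition. The Egr2 stretch held 4 CpGs (0.358 times the expected number), the Klf5 stretch 7 (0.526) and the Klf4 stretch 3 (0.214). Over all bases called in any library, the ratio of observed to expected CpGs was 0.810 at Egr4 (2218 bp), 0.715 at Egr3 (2092 bp), 0.491 at Klf4 (392 bp), 0.437 at Klf5 (560 bp) and 0.428 at Egr2 (3567 bp).

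Further sequences come from the RefSeq promoter table of GRCm38.p6, which held 4 of the 8 genes (Egr2, Egr4, Klf2 and Klf4). They show start sites over which no library had a call. The Egr4 promoter, the 250 bp before its TSS (chr6:85513590-85513839, minus strand, CpGs in capitals), directly adjoins the called gene body. The Egr2 sequence is the 30 bp around a CArG box, the serum response factor motif, which is given in capitals (chr10:67537787-67537816, plus strand). The box lies 72 to 63 bp before the start at +2394.
Egr4 promoter: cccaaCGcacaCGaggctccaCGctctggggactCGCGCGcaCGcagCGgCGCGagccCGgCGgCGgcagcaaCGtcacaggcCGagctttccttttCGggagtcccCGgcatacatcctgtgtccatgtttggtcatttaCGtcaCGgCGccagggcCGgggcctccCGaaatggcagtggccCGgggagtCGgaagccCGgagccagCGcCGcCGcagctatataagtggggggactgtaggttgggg
Egr2 CArG box: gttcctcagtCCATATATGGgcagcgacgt
The Egr4 promoter was as CpG-rich as the body (28 CpGs, 0.971 times the expected number), yet no peak reached it. By letters alone, a CArG box was found in 1.63% of the 32851 promoters of 300 bp in the table, searched on both strands, and in that of 1 of the 4 genes listed, Egr2. The cAMP-responsive element TGACGTCA was in 1.79% of all promoters and in none of these genes. The EGR site GCGNGGGCG, in 5.55% of all promoters, was found in those of Klf2 (1 match) and Klf4 (2 matches). The GC box GGGCGG, which can overlap it, was in 35.7% of all promoters and in those of Egr2, Klf2 and Klf4. These matches are descriptions of the sequence only.

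To see which of the genes carried called H3K27me3, their presence was counted per library. At least 1 library had a call at 5 of the 8 genes, 3 of the 4 Egr genes and 2 of the 4 Klf genes, beside 19.5% of all protein-coding genes. All 6 libraries had one at Egr2 and Egr4, beside 4.53% of all genes. Calls in all 3 PBS libraries and no CTX library, a pattern of 0.338% of genes, were found at none of the 8. PBS replicates 1, 2 and 3 had calls at 5, 5 and 3 of the genes, and CTX replicates 1, 2 and 3 at 2, 3 and 3. The means were 4.33 ± 1.15 for PBS and 2.67 ± 0.577 for CTX (SD, n = 3 each; exact permutation p = 0.3), and the groups shared the value 3. The 2 genes by which PBS replicates 1 and 2 exceeded PBS replicate 3 were Klf4 and Klf5.

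**Figure D1:**
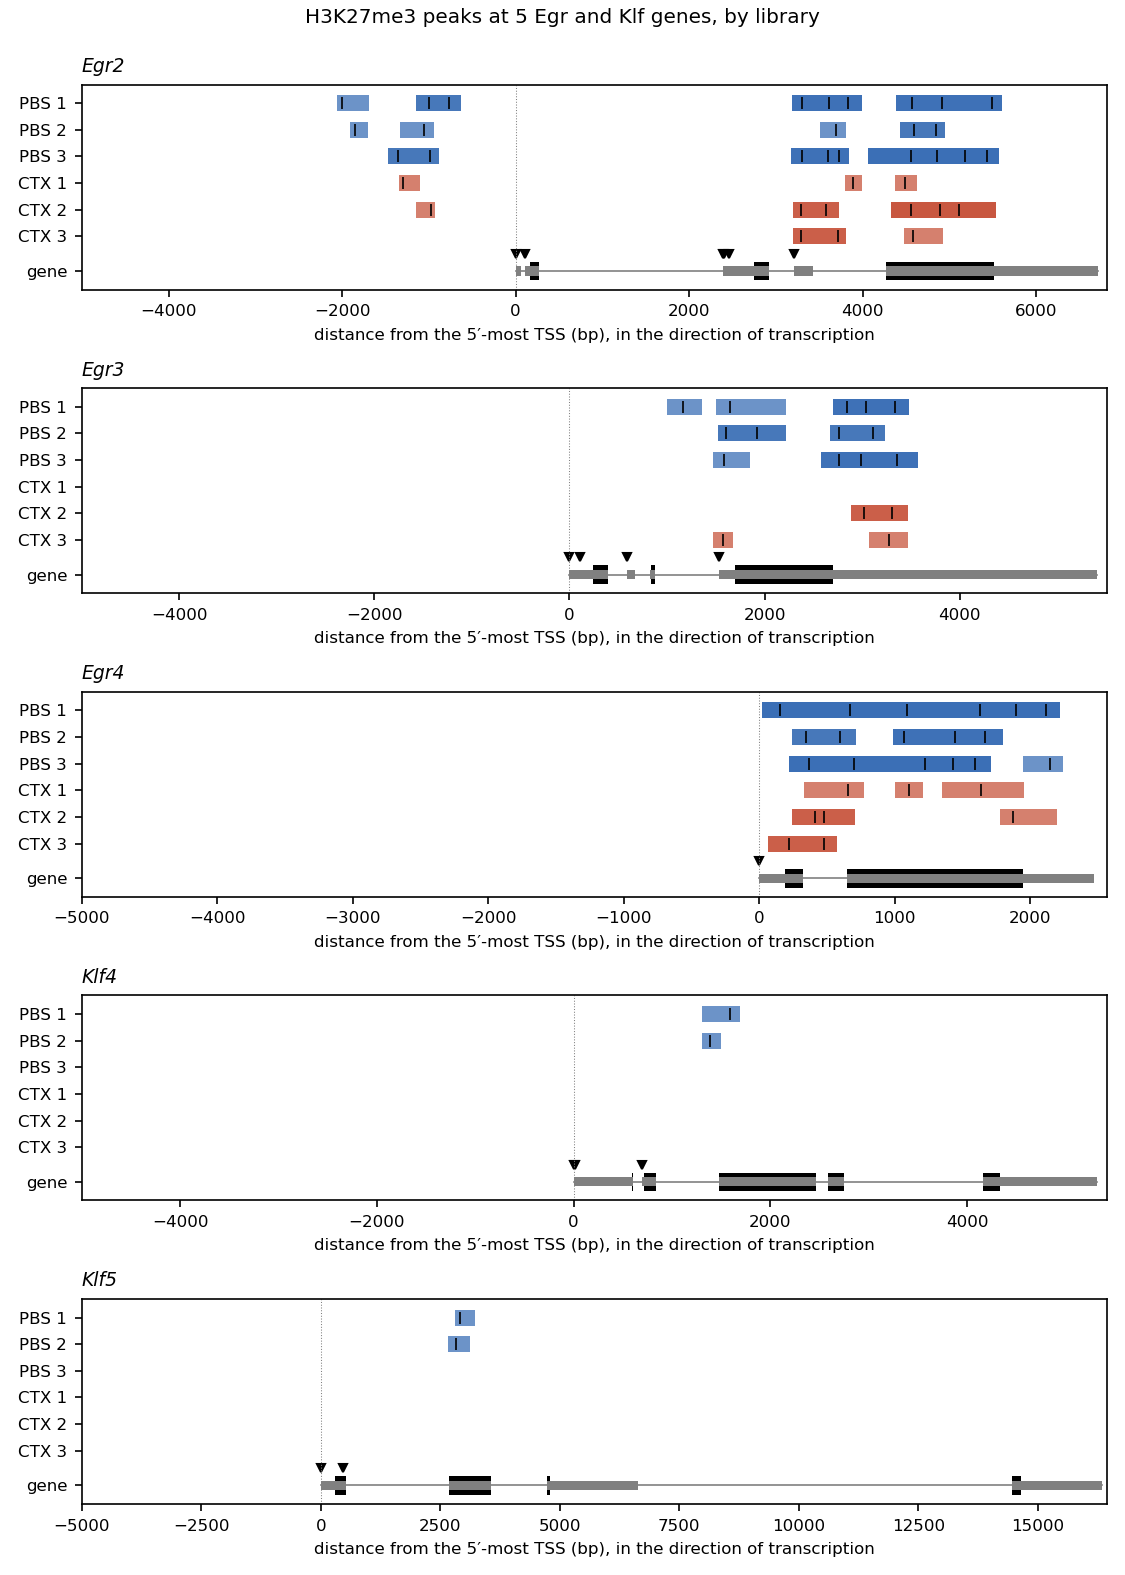
Deposited H3K27me3 peaks at Egr2, Egr3, Egr4, Klf4 and Klf5 against distance from the 5′-most TSS in bp; each bar is a called interval of 1 library (blue, PBS; red, CTX), black ticks are summits, triangles are transcript starts and the lowest track shows exons (tall, coding). Over all libraries together, calls spanned the Egr4 gene from +22 to +2239. Per library they covered from 20.5% (CTX replicate 3) to 89.0% (PBS replicate 1) of it. Calls formed blocks on both sides of 5 of the 6 Egr2 starts, and were present at Klf4 and Klf5 in PBS replicates 1 and 2 only.

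Egr4 encodes a factor best known from neurons and male germ cells, and it was among the genes that the study followed. Its calls lay wholly within the gene (chr6:85511121-85513589, minus strand), from +22 to +2239, and none lay upstream. Of its 25 listed summits, 16 were in coding exon, 6 in the intron and 3 in untranslated exon. In the PBS libraries 2197, 1283 and 1777 bp were called, which is 89.0%, 52.0% and 72.0% of the gene. In the CTX libraries 1256, 890 and 507 bp were called, or 50.9%, 36.0% and 20.5%. Every CTX library lay below every PBS library, although PBS replicate 2 and CTX replicate 1 nearly met. The means were 1752 ± 457 bp and 884 ± 375 bp (SD, n = 3 each), a difference of -868 bp with an exact permutation p of 0.1, the smallest that these group sizes allow. Adjusted over the 13 tests made on the genes, it was 0.186, as for every other test that reached 0.1. The groups overlapped with q at most 1e-05 (exact permutation p = 0.4) and with peaks within 1000 bp joined (exact permutation p = 0.2).

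The groups were closer in the height of the Egr4 peaks than in called bases. The highest pileup in the window, expressed for a library of 1000 reads per Mb, was 23.0, 21.1 and 26.3 in the PBS libraries. It was 20.2, 18.4 and 20.6 in the CTX libraries. The groups did not overlap, yet PBS replicate 2 and CTX replicate 3 were close, and the share of all genes with such groups was not counted. These heights rest on 45, 29 and 42 reads in the PBS libraries and 29, 30 and 23 reads in the CTX libraries. Without scaling to depth the groups overlapped (exact permutation p = 0.3). The means were 23.5 ± 2.66 and 19.7 ± 1.16 (SD, n = 3 each; log2 ratio -0.25, exact permutation p = 0.1), and without PBS replicate 3 the difference was -2.30 in place of -3.73. The −log10 q-value of the strongest peak was 8.65, 3.73 and 7.52 in PBS and 4.98, 4.40 and 4.02 in CTX libraries, so the groups overlapped (exact permutation p = 0.4).

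Egr2, also called Krox20, is required for hindbrain segmentation and for myelination by Schwann cells. Its calls formed 2 blocks upstream of the gene (chr10:67535475-67542188, plus strand), between -2057 and -636 bp, and 2 blocks within it, between +3171 and +5598. Of its 35 summits, 9 were upstream, 14 in coding exon, 8 in intron and 4 in untranslated exon. The 3806 bp between the upstream and the inner blocks had no call in any library, and this gap holds 5 of the 6 annotated transcript starts and the CArG box shown above. The inner block from +3171 spans the remaining start at +3208. These starts are those of GENCODE. RefSeq places 10 starts at Egr2, of which 2, at -1006 and -983 and from predicted models, lie inside the block called upstream here, and the other 8 lie in the gap. Upstream bases were called in all 3 PBS libraries (880, 604 and 587 bp) and in CTX replicates 1 and 2 (242 and 218 bp), but not in CTX replicate 3.

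Over the whole Egr2 window, 2906, 1420 and 2765 bp were called in the PBS libraries and 694, 1953 and 1054 bp in the CTX libraries. CTX replicate 2 exceeded PBS replicate 2, and the groups overlapped. The means were 2364 ± 820 and 1234 ± 648 bp (difference -1130 bp, exact permutation p = 0.2). The scaled pileup, in contrast, kept the groups apart. It was 27.1, 24.7 and 28.2 in PBS and 18.8, 17.8 and 18.8 in CTX libraries. The means were 26.7 ± 1.79 and 18.5 ± 0.587 (SD, n = 3 each; log2 ratio -0.53, exact permutation p = 0.1). These heights rest on 53, 34 and 45 reads in the PBS libraries and 27, 29 and 21 reads in the CTX libraries. The share of all genes whose groups stay apart in scaled pileup was not counted. Their median log2 ratio was also below 0, at -0.30 over 991 genes called in all 6 libraries.

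The strongest Egr2 peak also stood lower in the list of each CTX library. Its −log10 q-value was 16.5, 10.4 and 8.82 in the PBS libraries and 5.38, 6.72 and 4.89 in the CTX libraries. Its rank percentile, the share of the library's summits with a lower value, was 96.2, 92.3 and 84.0 against 72.2, 78.9 and 73.8. The groups did not overlap in either measure (exact permutation p = 0.1 each), and the share of all genes with such groups was not counted. The summit itself was at +4552 to +4584 in 4 libraries, at +3303 in PBS replicate 3 and at +3883 in CTX replicate 1, so these values do not always refer to the same stretch.

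Egr3 encodes the EGR factor known for muscle spindle development. Its calls lay inside the gene (chr14:70077203-70082614, plus strand), between +1004 and +3570, and 11 of 17 summits were in untranslated exon. In the PBS libraries 1853, 1264 and 1358 bp were called. In the CTX libraries it was 0, 587 and 604 bp, and CTX replicate 1 had no call at all. The highest CTX value was less than any PBS value. The means were 1492 ± 316 and 397 ± 344 bp (difference -1095 bp, exact permutation p = 0.1). The groups overlapped with q at most 1e-05 (exact permutation p = 0.4) and with equal numbers of summits (exact permutation p = 0.3). The 352 bp called in all 3 PBS libraries and in no CTX library at Egr3 exceeded the 158 bp at Egr4 and the 0 bp at Egr2.

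Where Egr3 was called, its height overlapped between the groups. The scaled pileup was 24.0, 22.5 and 33.9 in the PBS libraries and 20.3 and 24.2 in CTX replicates 2 and 3. CTX replicate 3 thus exceeded 2 of the 3 PBS libraries. No test was made on a height that 1 of the libraries did not list.

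Egr1, the founding member of the family and a common marker of growth factor signalling, had no call in any library. This held for its window of 10162 bp (chr18:34859823-34864984, plus strand, with the 5 kb upstream). Egr1 therefore differed from its 3 paralogs in presence, with 0 libraries against 6, 5 and 6. The CpG content around its TSS was the lowest of the 8 genes, with an observed to expected ratio of 0.559 within 1000 bp on either side. The ratio was 0.635 at Egr2, 0.714 at Egr3 and 0.741 at Egr4, and the median of all genes was 0.474.

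**Figure D2:**
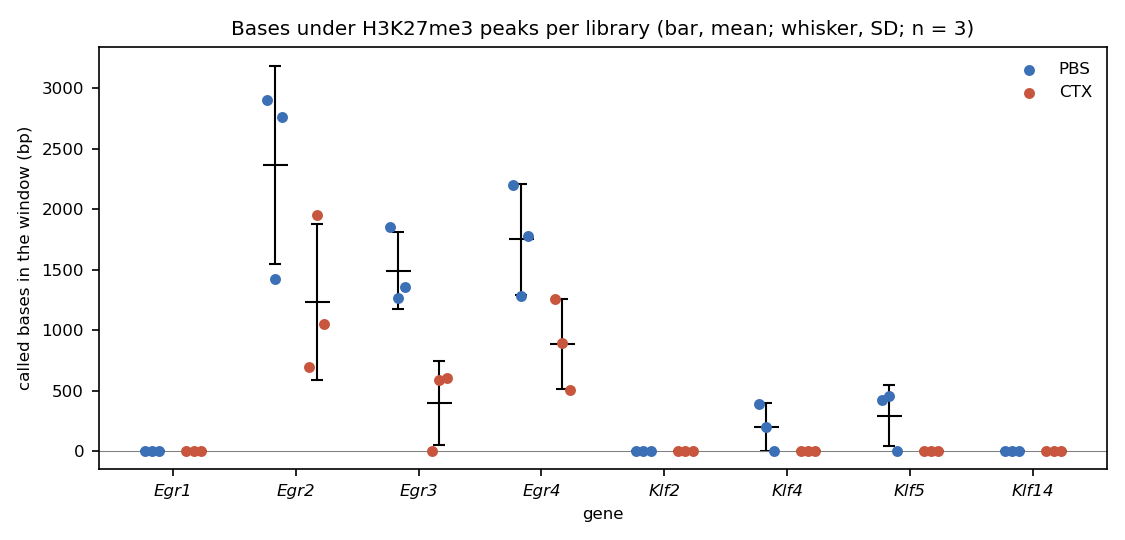
Called H3K27me3 bases in the window of each of the 8 genes (bp, linear axis); points are libraries, bars means and whiskers the SD of 3 libraries per group. Egr3 and Egr4 separate the groups, Egr2 does not, and Egr1, Klf2 and Klf14 sit at 0 in all 6 libraries.

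Klf4 encodes a factor best known as one of the reprogramming factors of pluripotency, and the study followed it in these cells. It lies at chr4:55527143-55532466 on the minus strand. PBS replicate 1 had 392 bp called and PBS replicate 2 had 200 bp, from +1301 to +1692, and the other 4 libraries had 0. PBS replicate 3 was thus like the CTX libraries, and the difference of -197 bp did not separate the groups (exact permutation p = 0.4). The peaks rested on 6 and 7 reads at their summits, and the smallest pileup called at the genome-wide background was 4 reads in each library. Their rank percentiles were 6.99 and 29.5, and their −log10 q-values were 1.58 and 2.74, near the authors' threshold of q = 0.05 for the first. When q was held to 0.01 only the peak of PBS replicate 2 was left. No Klf4 peak was left when q was held to 1e-05 or when each library was reduced to its 3316 strongest summits.

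Klf5, a driver of proliferation in epithelial progenitors, had 423 bp called in PBS replicate 1 and 454 bp in PBS replicate 2, from +2671 to +3230 (gene at chr14:99298691-99315036, plus strand). The other 4 libraries had 0 bp, as at Klf4 (exact permutation p = 0.4). These peaks rested on 17 and 15 reads and ranked at percentiles 29.6 and 42.5 of their lists. The peak of PBS replicate 2 was left among the 3316 strongest summits, and that of PBS replicate 1 was not. The calls at Klf4 and Klf5 came from the deepest library and from one less deep than CTX replicates 1 and 2, which had none. The part of depth in these calls was not tested.

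Klf2, which keeps endothelial cells and naive T cells quiescent, had no call in its window of 7624 bp (chr8:72319033-72321656, plus strand). Klf14, an imprinted gene with metabolic roles in fat tissue, had none in 8056 bp (chr6:30956023-30959078, minus strand). CpG content did not order the genes by their calls. Klf14 had the highest ratio of the 8 (0.970, above 99.4% of all genes), Klf5 and Klf4 had 0.866 and 0.864, and Klf2 had 0.726, between Egr3 and Egr4. Among all genes, 6.17% of those with a ratio of at least 0.6 were called in all 6 libraries and 3.69% of those below it.

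The genes also differed in how much signal lay within 10 kb of their strongest summits. The local background at the strongest summit counts the reads within 10 kb. If it came from the library itself, it includes the reads of the gene's own peaks. It is then not independent of the pileup and the called bases. This background was divided by the genome-wide floor of its library. This neighbourhood fold was 26.2, 22.5 and 38.3 at Egr2 in the PBS libraries and 22.7, 19.9 and 18.6 in the CTX libraries. It was 31.8, 33.2 and 37.5 at Egr4 in the PBS libraries and 27.1, 27.5 and 25.2 in the CTX libraries. At Egr3 it was 33.5, 38.0 and 38.9 in the PBS libraries and 27.9 and 24.9 in CTX replicates 2 and 3. The 3 Egr genes thus lay in neighbourhoods read many times above the genome average in both groups. Among 988 genes called in all 6 libraries the median PBS mean was 29.7, and Egr2 and Egr4 exceeded 47.9% and 59.2% of them. At Egr4 the groups did not overlap (exact permutation p = 0.1), and the share of all genes with such groups was not counted. At Egr2 the groups overlapped (exact permutation p = 0.2), and without PBS replicate 3 the difference there was -3.95 in place of -8.59. Klf5 stood at 10.8 and 10.7 in its 2 libraries and Klf4 at 2.15 and 2.47.

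**Figure D3:**
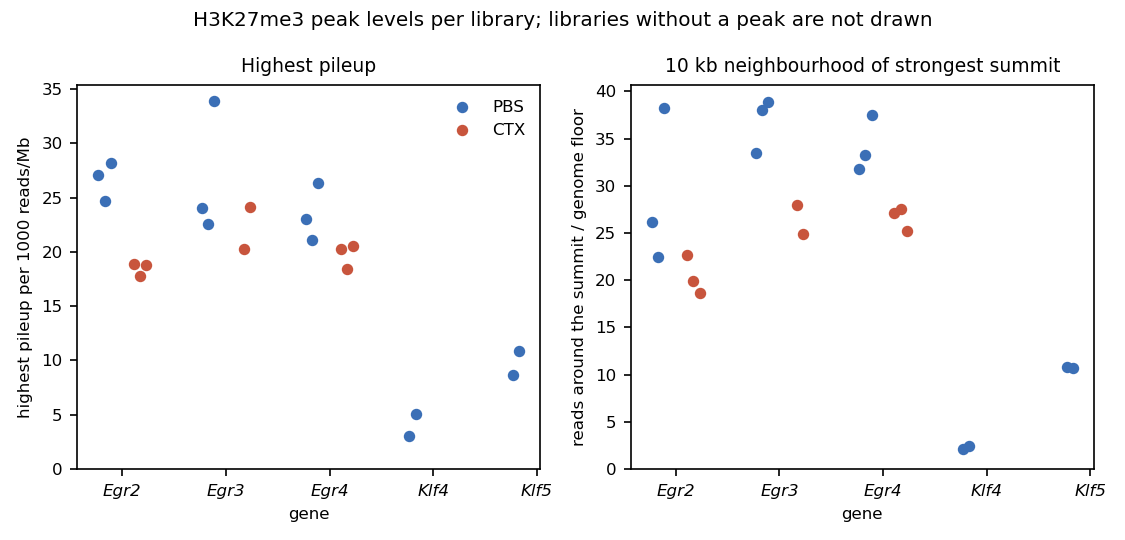
Left, highest pileup in the window scaled to 1000 reads per Mb; right, reads within 10 kb of the strongest summit relative to the genome floor; points are libraries with a peak (blue, PBS; red, CTX), both axes linear from 0. Scaled Egr2 and Egr4 pileups do not overlap between groups, whereas unscaled Egr4 pileups (not drawn) do. Klf4 lies at 2.15 and 2.47 times the floor against 18.6 to 38.9 at the 3 Egr genes.

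Within libraries, the 3 called Egr genes were close in height. Egr2 exceeded Egr4 in scaled pileup in 3 of 6 libraries (mean difference 0.968, exact sign-flip p = 0.406). Egr3 exceeded Egr4 in 5 of 5 libraries, by 1.02 to 7.53 (exact sign-flip p = 0.0625). By rank percentile Egr2 stood above Egr4 in 6 of 6 libraries, by 3.71 to 43.5 points (exact sign-flip p = 0.0312). By neighbourhood fold Egr2 stood below Egr3 in 5 of 5 libraries. Adjusted over the 12 comparisons of paralogs, the lowest p was 0.15, so none passed. By called bases Egr2 stood above Egr3 in 6 of 6 libraries, by 156 to 1407 bp (exact sign-flip p = 0.0312), and Egr4 stood above Egr3 in 5 of 6 (exact sign-flip p = 0.0938). The difference of Egr2 minus Egr4 was -562 to 1063 bp over the 6 libraries, and these paralogs did not differ beyond their spread (exact sign-flip p = 0.125).

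To compare the 8 genes together between the groups, their called bases were summed. The sum was 7771, 4621 and 5900 bp in the PBS libraries and 1950, 3430 and 2165 bp in the CTX libraries. The groups did not overlap, with means of 6097 ± 1584 and 2515 ± 800 bp (exact permutation p = 0.1). Since the libraries also differed in their total called sequence, the sum was also taken per Mb called. It was then 2734, 2654 and 2373 bp per Mb in the PBS libraries and 1345, 1765 and 2330 bp per Mb in the CTX libraries. The means were 2587 ± 190 and 1813 ± 494 (exact permutation p = 0.1), and PBS replicate 3 and CTX replicate 3 nearly met. The difference was -774 bp per Mb. With equal numbers of summits the groups overlapped in the sum (exact permutation p = 0.2) and in the bases per Mb (exact permutation p = 0.3), and with q at most 1e-05 in both (exact permutation p = 0.2 each). The bases per Mb also overlapped with peaks joined or with either other window (exact permutation p = 0.2 each).

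Fewer called bases in every CTX than in every PBS library were found at 2 of the 5 called genes, Egr3 and Egr4, beside 14% of all genes called in at least 1 library. The reverse, found at 0.281% of those genes, occurred at none of the 5. Among genes called in all 3 PBS libraries it was 2 of 3 (Egr3 and Egr4 but not Egr2) beside 36.2%. At Egr2, Egr3 and Egr4 every base called in a CTX library was also called in a PBS library (0 bp found in CTX libraries alone). The same held for 28.4% of the genes called in all 3 PBS and at least 1 CTX library and for 17.1% of genes called in at least 1 CTX library.

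Against genes called in all 6 libraries, Egr2 and Egr4 lay on the same side of 0 as the median. The median log2 ratio of CTX to PBS scaled pileup was -0.30 over 991 genes, with quartiles of -0.41 and -0.16. Egr4 at -0.25 lay above the median, and 59.7% of genes lay below it. Egr2 at -0.53 lay below the lower quartile, and 10.1% of genes lay below it. For the neighbourhood fold the median was -0.34 over 988 genes, beside -0.36 at Egr4 and -0.51 at Egr2. For called bases the median was -0.67 over 993 genes, with a lower quartile of -0.99, beside -0.94 at Egr2 and -0.99 at Egr4. Egr2 and Egr4 were among the more widely called of these genes, with PBS means above those of 95.6% and 82.1% of them.

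**Figure D4:**
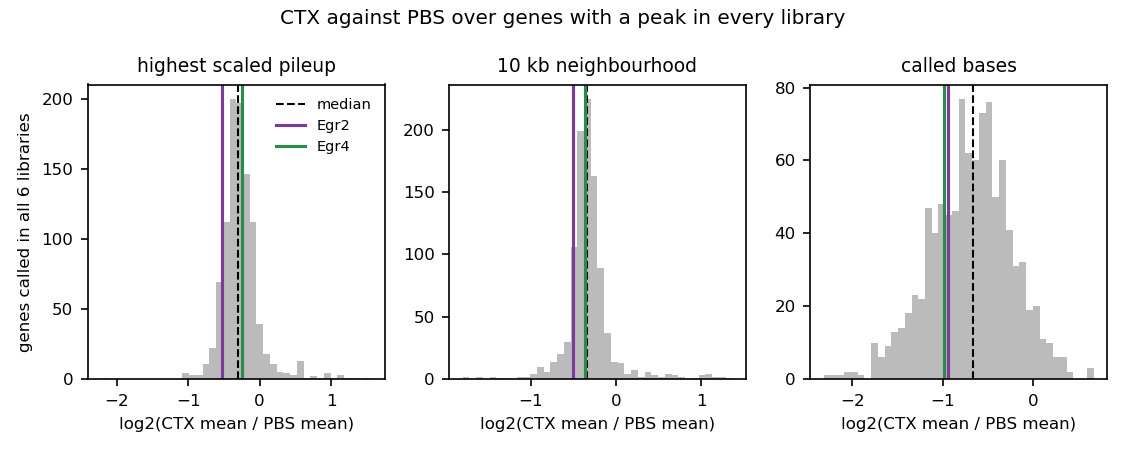
Distribution over genes called in all 6 libraries of the log2 ratio of the CTX mean to the PBS mean, for scaled pileup, 10 kb neighbourhood and called bases; the vertical axis counts genes, the dashed line is the median, and coloured lines mark Egr2 and Egr4. Both genes and the medians lie below 0, and Egr4 lies close to the median in pileup and neighbourhood.

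The genes whose scaled pileups were most alike over the 6 libraries were found by the root mean square difference in log2, among 989 genes. For Egr2 they were Cldn3 (0.0973), Sult2b1 and Lmtk3 (0.0996 each), and Tnfrsf12a and Cldn6 (0.114 each). For Egr4 they were Kcnj4 (0.0755), Slc6a17 (0.0822), Sult2b1 and Lmtk3 (0.113 each), and Ndrg4 (0.120). Sult2b1 and Lmtk3 have equal values, as have Tnfrsf12a and Cldn6, because they are neighbours whose windows hold the same peak.

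The wider families were then examined. Of 22 other Klf and Sp genes, 8 had a call in at least 1 library, 3 of them in all 6, and 14 had none, beside 19.5% of all genes called in at least 1 library and 4.53% in all 6. Those called in all 3 PBS libraries were Klf12 (a repressor), Klf15 (a metabolic regulator), Sp5 (a Wnt target), Sp7 (the osteoblast factor osterix), and Sp8 and Sp9 (limb and forebrain factors). Sp2 and Sp6, which were picked out after their values were seen, had calls in 2 and 4 libraries. Called bases were lower in every CTX than in every PBS library at 2 of the 6 called in all 3 PBS libraries, beside 36.2% of all such genes. At Sp5 they were 1233, 921 and 687 bp in PBS and 481, 630 and 570 bp in CTX libraries, and at Sp7 1946, 897 and 1712 bp against 426, 624 and 0 bp.

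Of 27 other immediate early genes, 6 had a call in at least 1 library, beside 19.5% of all genes, and 21 had none, including Fos, Jun, Junb, Myc, Ier2 and Dusp1. Fosl1, an AP-1 subunit, and Atf3, a stress-induced bZIP factor, were called in all 6 libraries. Nr4a2 and Nr4a3, orphan nuclear receptors, were called in all 3 PBS libraries and in 2 and 1 CTX libraries. Fosb and Npas4, named after their values were seen, were called in 3 and 2 libraries. Of the 4 called in all 3 PBS libraries, 1 had groups that did not overlap, beside the same 36.2%. This was Atf3, with 857, 400 and 1624 bp in PBS and 347, 383 and 384 bp in CTX libraries. Of 12 partners and regulators of EGR and serum response factors, 10 had no call, beside 19.5% of all genes called in at least 1 library. Mrtfa and Mrtfb, picked out after their values were seen, had 1 call each in a single library.

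**Figure D5:**
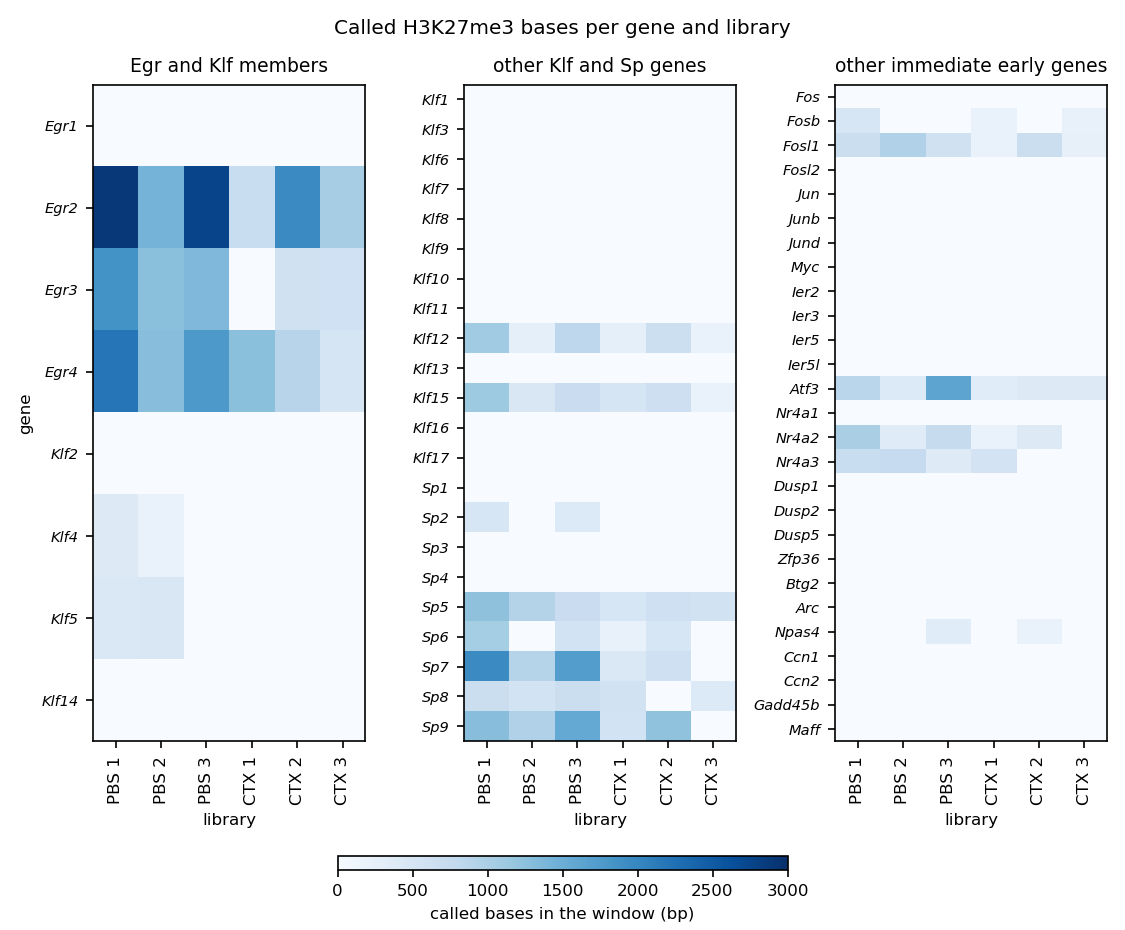
Called H3K27me3 bases (colour, bp) per library for the 8 Egr and Klf genes, 22 other Klf and Sp genes and 27 other immediate early genes. Egr2 and Egr4 are the darkest rows, and most rows are blank in all 6 libraries.

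Genes that active GCs should keep free of the mark were counted as well. Of 12 granulosa genes 11 had no call, and Fshr, the receptor for follicle-stimulating hormone, had 200 bp in PBS replicate 3. Over all protein-coding genes only 19.5% had a call in at least 1 library. Most genes of any kind thus had none, and this count cannot check the labelled cell type. Among markers of other cells, calls were found at 2 of 4 theca genes (Insl3 in 6 libraries and Ptch1 in 5), 0 of 6 oocyte genes, 2 of 4 immune genes (Ptprc and Adgre1, 1 CTX library each) and 1 of 4 endothelial genes (Kdr, PBS replicate 1). An absent call does not show that a gene is active, so other cells in the pools cannot be told apart by these lists. Of the 9 genes that the study followed, Egr4 and Klf4 had calls and 7 had none. Hox genes, classic Polycomb targets, had calls at 36 of 39, and ribosomal protein genes at 3 of 79. No spike-in is given, and fewer modified nucleosomes per cell and fewer modified cells cannot be told apart.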

How the data were processed

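The 8 genes and the other gene lists were chosen with earlier results of these data known. Per the labels and the study's methods, the authors aligned de-duplicated reads to mm10 with BWA and called peaks in each library with MACS2 2.1.0 at a q-value of 0.05; use of a control library is not stated in the sources used here. The deposited lists hold, for each summit, a score, a fold enrichment (a ratio of pileup to local background), −log10 values for p and q, and the summit position. The score repeats the q-value and was not analysed further. Narrow peaks split broad H3K27me3 domains, so called bases depend on the calling.

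Windows and exons were taken from GENCODE M21, and sequences from GRCm38. The pileup and background were solved from the fold enrichment and p-value, which MACS2 derives from a Poisson model. A solution within 0.0005 was found for 99.8% to 99.9% of summits, and in all libraries 100% of solved backgrounds were whole multiples of 0.02, the value of 1 read extended by 200 bp over 10 kb. The most frequent background gave the depth. The solver was tested on simulated data. The neighbourhood fold was chosen after the data were seen. Pileups carry the counting error of the reads given.

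Two-sided exact permutation tests were used between groups, and paralogs were compared by exact sign-flip tests over libraries, and p-values were adjusted by Benjamini-Hochberg (Python 3.11.15, SciPy 1.17.1). Named were all 8 genes, the other Klf or Sp and immediate early genes called in all 3 libraries of a group, and the 5 genes most like each gene called in all 6 libraries. Alternatives were other q-values, equal numbers of summits, other windows, joined peaks, unscaled pileups, each library left out, and a replicate block.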

Additional observations from a re-analysis of the deposited data

How the results depend on the processing

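For the number of genes called, the summed bases, the bases per Mb called, the Egr4 bases and pileup, and the Klf4 bases, 82 alternatives were run. Of these, 80 kept the direction, 0 turned it and 2 left no difference. The alternatives for the other values of Egr2, Egr3, Egr4 and Klf5 (77, added after the data were seen) kept the direction in 75. Both counts include alternatives that left the value unchanged and so do not test its direction. The replicate block leaves every difference the same by construction. Counting only peaks with their summit inside the window also changed none, with -3582 bp summed and -868 bp at Egr4. The Egr4 pileup stayed at -3.73 with q at most 0.01 and with equal numbers of summits. Klf4 stayed at -197 bp when any CTX library was left out, since all had 0 bp. The groups overlapped, however, with q at most 1e-05 in the summed bases and the bases per Mb (exact permutation p = 0.2 each) and at Egr3 and Egr4 (exact p = 0.4 each), and with equal numbers of summits in the summed bases (exact p = 0.2), the bases per Mb and Egr3 (exact p = 0.3 each). They also overlapped at Egr4 with peaks joined, in unscaled Egr4 pileups (exact p = 0.3), and in the bases per Mb with peaks joined, the 2000 bp window or 10 kb upstream (exact p = 0.2 each). The Klf4 difference was 0 bp with q at most 1e-05 and with equal numbers of summits. No exact permutation test between 3 and 3 libraries can give a p-value below 0.1.

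The number of genes called differed by -1 with q at most 1e-05 and by -0.67 with equal numbers of summits. The difference per Mb called was -1869 and -1389 bp under these settings, and with q at most 1e-05 the Egr4 pileup could not be compared, since no CTX library kept a peak. Within 2000 bp of the TSS the difference was -2000 bp for the sum, -518 bp at Egr2 and -502 bp at Egr3. With peaks within 1000 bp joined it was -1699 bp at Egr3. Unscaled, the Egr4 pileup differed by -11.3 reads and the Egr2 pileup by -18.3 reads.

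Leaving out 1 library at a time gave differences of -2.33 to -1.33 genes, -4320 to -2746 bp summed, -1032 to -540 bp per Mb, -1103 to -646 bp at Egr4, -4.92 to -2.30 in Egr4 pileup and -296 to -100 bp at Klf4. Same-numbered libraries did not deviate together (correlations of -0.0102, -0.103 and -0.0750 over 4266 genes). With 3 libraries per group and no such values given for other pairs, this cannot show whether pools were handled in pairs. With a replicate block the differences are the same by construction (-3582 bp for the summed bases, -868 bp at Egr4), and the summed bases had an exact sign-flip p of 0.25, the smallest possible. The Klf4 and Klf5 calls rest on the fewest reads, 6 to 17 at a summit.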
